A study of Mus musculus with 6 samples.

Results

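The histone genes of B16 tumours were examined in bulk RNA sequencing libraries. Members were the rows of the deposited gene table whose symbol begins as a mouse linker or core histone symbol does (H1f, H2a, H2b, H3 or H4 followed by a cluster or variant letter, or the older Hist1h to Hist4h form). A member also had to have a count above 0 in at least 3 of the 6 libraries, so the members were chosen by symbol and by detection, without regard to group. The genes were taken up with an earlier look at their RI and ICI levels known, and those levels are given as a description of these libraries. The symbol rule found 81 rows among 34665, and 73 of them were members. The 8 rows left out held at most 6 counts in all libraries together. At the edge of the rule, 5 members were detected in exactly 3 libraries, with at most 15 counts in any, and 4 rows were detected in exactly 2, with at most 5 counts in any. The rule does not take macroH2A or the centromeric H3 variant, whose symbols begin otherwise.

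B16 is a mouse melanoma cell line, and the labels give the tumours as wild type. The ICI group (n = 3, replicates 1, 2 and 3) was treated with an immune checkpoint inhibitor alone. The RI group (n = 3, replicates 1, 2 and 4) was treated with radiation plus the inhibitor, so the inhibitor is common to both groups and no untreated tumour is among the samples. Mouse strain, age and sex, what the inhibitor binds, how much radiation was given, when tumours were taken and whether they had been irradiated directly are not stated by the labels. Since nothing ties each library to its own animal, the p-values cover variation among libraries, which may be partly technical.

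Replication-dependent histone genes supply the H1 linker and the H2A, H2B, H3 and H4 core histones during S phase, when newly made DNA is packed into chromatin. Their genes lie in clusters, mostly lack introns, and give mRNAs that end in a conserved stem-loop in place of a poly(A) tail. The stem-loop is bound by the stem-loop binding protein Slbp, and the U7 small nuclear ribonucleoprotein directs cleavage just after it. Replacement variants such as H2A.Z and H3.3 are made through the cell cycle, from genes that lie outside the clusters and give polyadenylated mRNAs. Some cluster genes can also give polyadenylated forms, which are known from differentiated cells. The labels do not say whether the libraries were selected for poly(A) or depleted of ribosomal RNA.

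By class, 54 of the 73 members were replication-dependent (4 H1, 13 H2A, 14 H2B, 10 H3 and 13 H4), 8 were replacement variants, 6 were germline or other histones, and 5 were pseudogenes or antisense transcripts. Of the 54 replication-dependent members, 48 lay on chromosome 13 (GRCm38) and 49 had 1 exon in their longest annotated transcript. Many are close copies of each other. A total of 54 members, 47 of them replication-dependent, had 20% or more of their transcript in common with another gene at 95% identity or more, and single-gene values are uncertain to that extent. The strand setting of the counting is not given either, so reads of overlapping antisense genes cannot be told apart.

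The stem-loop is the feature that sets most of these mRNAs apart from the polyadenylated ones, and representative sites are shown here from GENCODE M21 transcripts (GRCm38). They are printed 5′ to 3′ in the sense of the mRNA, with T for U. Capitals mark the 16 bases of the stem-loop, a fully paired stem of 6 base pairs around a loop of 4 bases, with 5 bases on either side.
H1f2: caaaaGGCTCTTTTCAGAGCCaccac
H2ac6: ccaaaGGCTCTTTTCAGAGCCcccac
H2bc8: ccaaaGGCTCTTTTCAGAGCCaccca
H3c3: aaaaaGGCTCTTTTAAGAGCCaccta
H3c6: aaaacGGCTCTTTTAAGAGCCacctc
H4c8: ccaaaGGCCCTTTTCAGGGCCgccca
H4c9: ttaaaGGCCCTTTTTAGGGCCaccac
H2ax: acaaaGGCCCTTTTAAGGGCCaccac

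The H1f2 site lies at chr13:23739507-23739532 on the plus strand, and the H3c6 site at chr13:23561898-23561923 on the minus strand. The H2ax site lies on the plus strand at chr9:44335235-44335260. A stem-loop of this form was found in 40 of the 54 replication-dependent members and in 1 of the 8 replacement variants, H2ax, the variant that is phosphorylated around DNA breaks. Across the annotation, 128 of 55450 longest transcripts (0.231%) held one, whereas for members every annotated transcript was searched. The 16 bases took 9 distinct forms among the members counted. The form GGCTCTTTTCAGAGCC was found in 21 of them and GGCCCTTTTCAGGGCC in 7. No match to this form was found in the annotated transcripts of H2bc4, the most abundant H2B gene, or of H2bc21. Some other members without a match have short annotated transcripts, such as H4c12 with 312 bases and H2bc13 with 381. Such transcripts may end before the site, so a missing match does not show that the gene lacks a stem-loop.

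The libraries held 22543721 to 45624013 counts. Of 16924 genes that passed the filter on low counts, 754 were higher in RI (4.46%) and 799 lower (4.72%), 9.18% in all, by edgeR's quasi-likelihood test at a Benjamini-Hochberg adjusted p under 0.05. These counts rest on few libraries and fell to 0 in each direction without ICI replicate 1 or without RI replicate 2. They were 2 higher and 0 lower without ICI replicate 3, and 81 and 16 without RI replicate 4. Without ICI replicate 2 they were 234 and 291, and without RI replicate 1 they rose to 1564 and 1545. Levels below are CPM, the count scaled to library size, after scaling by the trimmed mean of M-values (TMM). Errors are SD over the 3 libraries of a group. The melanoma markers Mlana, Pmel, Tyr, Tyrp1, Dct, Sox10, Mitf, Slc45a2, Trpm1 and Gpnmb summed to 17400 to 19900 CPM in ICI and 12900 to 19100 in RI, and none of them was at 0. Of these 10 genes 1 was called, Mlana, at 574 ± 78.5 CPM in ICI and 965 ± 115 CPM in RI (SD, n = 3 each). Its log2 fold change was 0.75 with an edgeR adjusted p of 0.0376, in the direction of the called histone genes below. Pmel, Tyrp1, Dct, Mitf, Slc45a2, Trpm1 and Gpnmb had log2 fold changes below 0. The median of the 10 was -0.14, and -0.33 without RI replicate 1.

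Of the 73 members, 40 passed the filter and 33 did not. Among those 40, the test called 2 higher in RI, H2bc4 and H2aj, and none lower. At an unadjusted p under 0.05 there were 3 higher and 0 lower, the third being H2az2 (15.7% and 15.8% of all tested genes), and DESeq2 and limma-voom also called 2 higher and 0 lower. DESeq2 called 8.28% of all genes higher and 8.42% lower, and limma-voom 4.35% and 4.56%. The background is the 4.46% of all tested genes called higher. Without RI replicate 1 the same 2 were called higher and 0 lower, where 8.91% of genes were called higher and 8.8% lower. Fewer cells of a type and less RNA per cell cannot be told apart in bulk samples.

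H2bc4 (Hist1h2bc in older annotation) encodes an H2B protein and lies on chromosome 13 at 23684199 to 23692908, plus strand, with 2 exons in its longest transcript. Its level was 34.6, 24.0 and 32.0 CPM in ICI and 61.3, 75.3 and 52.8 CPM in RI, and the groups did not overlap. The means were 30.2 ± 5.52 and 63.1 ± 11.3 CPM (SD, n = 3 each). The difference was 2.09-fold, a log2 fold change of 1.07 (SE 0.19) with an edgeR adjusted p of 0.0282. The transcript shares 34.0% of its length with another gene. Without ICI replicate 1, without ICI replicate 2, without ICI replicate 3, without RI replicate 2 or without RI replicate 4 the call was lost, with log2 fold changes of 0.92 to 1.18 over all 6 omissions and adjusted p of 0.0197 to 0.137.

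H2aj (H2afj in older annotation) encodes H2A.J, an H2A variant, and lies on chromosome 6 at 136808244 to 136810074, plus strand, with 1 exon in its longest transcript. Its level was 86.2, 96.5 and 69.6 CPM in ICI and 145, 162 and 141 CPM in RI. Every RI library was above every ICI library, and the means were 84.1 ± 13.6 and 149 ± 11.5 CPM (SD, n = 3 each). The difference was 1.78-fold, a log2 fold change of 0.83 (SE 0.15) with an edgeR adjusted p of 0.0298. The transcript shares 7.0% of its length with another gene. The call was lost without ICI replicate 1, without ICI replicate 3, without RI replicate 2 and without RI replicate 4, with an adjusted p of up to 0.148, and it stood at 0.0549 after correction for length and GC content.

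The summed level of 6 markers of fat also did not overlap between the groups. It was 0.654 to 25.4 CPM in ICI and 53.3 to 77.1 CPM in RI. Of the 6, 5 were tested and 1 was called higher, Plin4, a coat protein of lipid droplets. Adipoq, Plin1 and Lep were each highest in ICI replicate 3 of the 6 libraries. None of the 6 was at 0 in all libraries of a group, but Plin1, Cidec and Lep were at 0 in ICI replicates 1 and 2. The leukocyte markers summed to 33.0 to 82.3 CPM in ICI and 13.2 to 50.5 in RI, with 0 of 9 tested called in either direction by edgeR or limma-voom, 1 higher at an unadjusted p under 0.05 and 1 higher by DESeq2. Skeletal muscle markers ranged from 2.49 to 208 CPM in ICI and from 16.8 to 2150 in RI, fibroblast and endothelial markers from 118 to 615 and from 268 to 614, and red cell markers from 226 to 4480 and from 110 to 454. None of these was called by edgeR or limma-voom. DESeq2 called 1 muscle marker higher and 1 red cell marker lower. At an unadjusted p under 0.05, 1 fibroblast or endothelial marker was higher and 1 red cell marker lower. The part of these cells in the histone values was not tested.

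**Figure D1:**
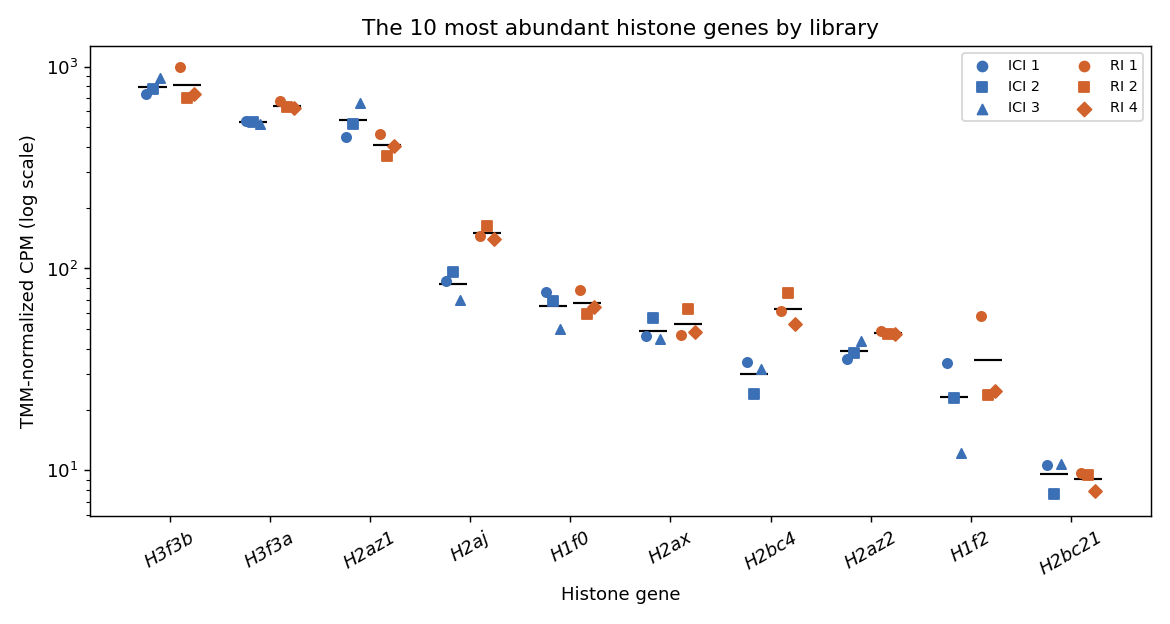
Level of the 10 histone genes with the highest mean CPM, not corrected for length, in each library, in TMM-normalized CPM on a log axis, with 1 point per library and the groups in different colours. The RI points of H2aj and H2bc4 lie above all their ICI points, while those of H3f3b and H1f0 overlap.

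The replacement variants held most of the histone CPM in these libraries. Their summed level was 2100 ± 153 CPM in ICI and 2170 ± 237 CPM in RI (SD, n = 3 each), against 87.9 ± 12.9 and 159 ± 68.1 CPM for all 54 replication-dependent members. Most replication-dependent mRNAs lack a poly(A) tail and the RNA selection is not stated, so these sums need not follow the amounts of RNA in the tumours. The part of RNA selection in this gap was not tested. Of the members, 62 stayed under 10 CPM and 34 stayed under 1 CPM in every library. Per kilobase of the longest annotated transcript, a rough scale for setting genes side by side, H2az1 averaged 445 CPM over the 6 libraries, H3f3b 318 and H3f3a 206. H2aj followed at 63.7 CPM per kilobase, H2bc4 at 40.4, H2ax at 36.9, H1f0 at 32.3 and H2az2 at 26.6. H1f2, the most abundant H1 gene of the clusters, averaged 18.8 CPM per kilobase. Its annotated transcript of 1560 bases has 840 after the stem-loop. Levels per kilobase of such cluster genes may therefore be too low.

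H2az1 encodes H2A.Z, the variant found beside transcription starts. Its level was 447, 521 and 659 CPM in ICI and 466, 361 and 403 CPM in RI, and the groups overlapped. The means were 542 ± 108 and 410 ± 52.7 CPM, with a log2 fold change of -0.40 and an edgeR adjusted p of 0.170. H2az2, the gene of the other H2A.Z protein, was at 35.7, 38.0 and 43.6 CPM in ICI and at 49.1, 47.2 and 47.4 CPM in RI. These groups did not overlap, but the log2 fold change of 0.29 had an edgeR adjusted p of 0.153. Whether the difference between the groups was itself different for the 2 H2A.Z genes was not tested.

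H3f3a and H3f3b encode the same H3.3 protein, which is deposited outside replication. H3f3a was at 540, 531 and 521 CPM in ICI and at 672, 627 and 621 CPM in RI. The groups did not overlap, and the log2 fold change was 0.27 with an edgeR adjusted p of 0.176. H3f3b was at 729, 772 and 879 CPM in ICI and at 992, 700 and 731 CPM in RI, with means of 793 ± 76.8 and 808 ± 160 CPM (log2 fold change 0.03, edgeR adjusted p 0.936). The H3f3b groups overlapped, and RI replicate 1 was the highest of the 6 libraries.

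H1f0, the linker histone of slowly dividing and differentiated cells, averaged 65.3 ± 13.7 CPM in ICI and 67.4 ± 9.62 CPM in RI, with an edgeR adjusted p of 0.885. H2ax averaged 49.3 ± 6.50 and 52.8 ± 8.88 CPM, with an edgeR adjusted p of 0.689. Both sets of libraries overlapped. Of the 40 tested members, those whose groups did not overlap were 4 with RI higher (H2bc4, H2aj, H2az2 and H3f3a) and 0 with RI lower. Among all tested genes such rows made up 17.8% with RI higher and 19.4% with RI lower. H1f10, the eighth replacement variant, did not pass the filter.

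Among the replication-dependent genes, 30 of the 54 passed the filter. Only H2bc4 was called, 27 of the 30 had a log2 fold change above 0, and the median was 1.00, against 0.01 for all tested genes. RI replicate 1 held the highest level of the 6 libraries for 45 of the 54 replication-dependent members (83.3%), whereas it was the highest for 25.6% of the 24881 rows detected in at least 3 libraries. Without RI replicate 1, 13 of the 30 had a log2 fold change above 0 and the median was -0.04.

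Within ICI, replicate 2 was highest for 35 of the 54 (64.8%), against 35.2% of all detected rows. Both held together, RI replicate 1 highest overall and ICI replicate 2 highest in its group, for 32 of the 54 (59.3%), against 9.51% of detected rows. For the 8 replacement variants both held together for 0, but RI replicate 1 was the highest library for 5 of them (62.5%). Of all 73 members, 58 (79.5%) were highest in RI replicate 1. With both of these libraries left out, a fit chosen after the data were seen, 16 of the 25 replication-dependent genes still tested had a log2 fold change above 0 and the median was 0.29.

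**Figure D2:**
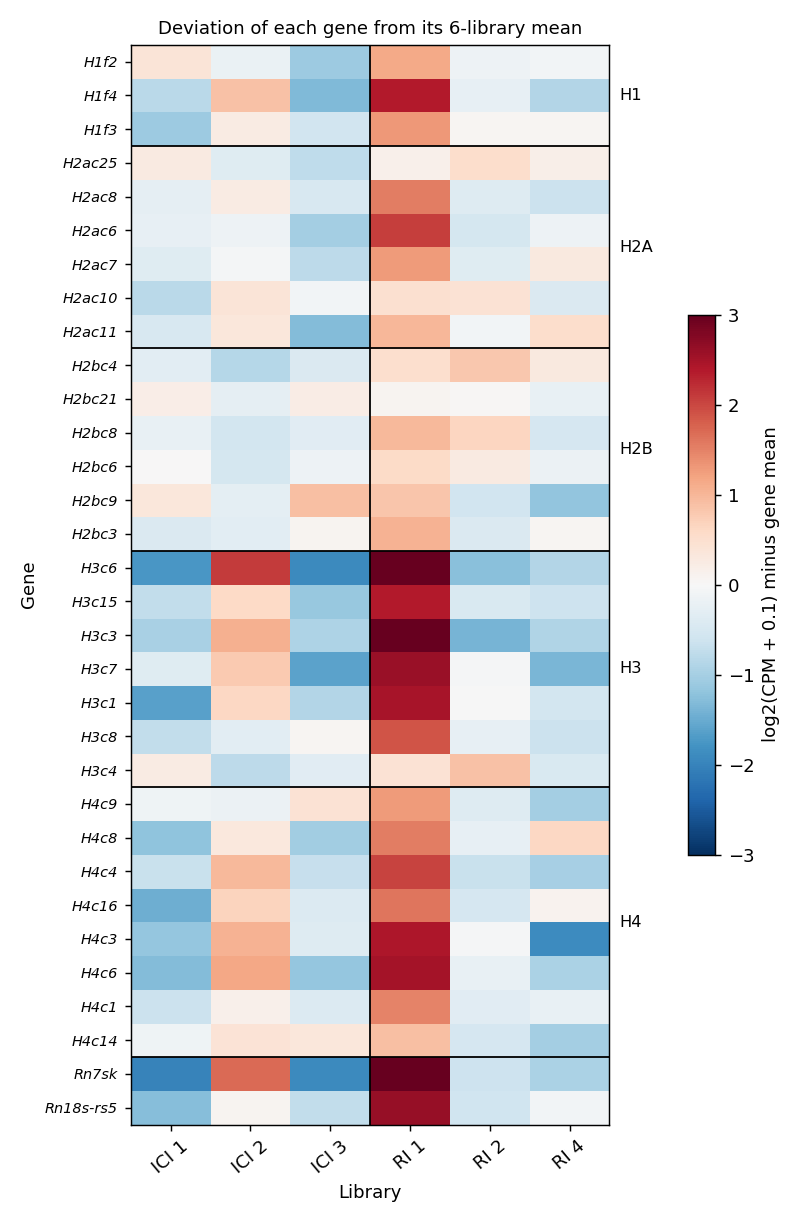
Deviation of each tested replication-dependent histone gene from its own mean over the 6 libraries, as log2(CPM + 0.1), with genes in rows and libraries in columns. The bottom rows are Rn7sk and Rn18s-rs5, RNAs taken up further on. The column of RI replicate 1 is high in most rows, with a median deviation of 1.3 in H1, 1.15 in H2A, 0.7 in H2B, 2.47 in H3 and 1.57 in H4. In the tested replacement variants, which are not drawn, it was 0.21. RI replicate 1 is not the highest library for H2ac25, H2bc4, H2bc9, H2bc21 or H3c4.

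H3c6 showed the pattern most plainly. This H3 gene was at 0.288, 5.51 and 0.251 CPM in ICI and at 16.9, 0.451 and 0.607 CPM in RI, so that ICI replicate 2 and RI replicate 1 stood above the other 4 libraries. Its log2 fold change was 1.57 (SE 1.89, edgeR adjusted p 0.605) and -1.94 without RI replicate 1. H3c3 was at 0.403, 1.94 and 0.418 CPM in ICI and at 8.55, 0.270 and 0.420 CPM in RI, with a log2 fold change of 1.74 that became -1.44 without RI replicate 1. H3c15 was at 0.891, 2.39 and 0.648 CPM in ICI and at 8.48, 1.10 and 0.980 CPM in RI, again with those 2 libraries highest.

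Summed over the 10 H3 members, the level was 2.79, 12.6 and 2.61 CPM in ICI and 43.1, 3.94 and 2.99 CPM in RI. RI was 2.78-fold ICI on the means and 0.578-fold without RI replicate 1. The 13 H4 members summed to 4.08, 8.91 and 5.94 CPM in ICI and 23.4, 4.91 and 4.57 CPM in RI, a ratio of 1.74 that became 0.752 without RI replicate 1. H4c9, the most abundant H4 gene, was at 2.10, 2.04 and 3.12 CPM in ICI and at 5.75, 1.74 and 1.07 CPM in RI. In H4c8 the ICI libraries were at 0.403, 1.33 and 0.460 CPM and the RI libraries at 3.26, 0.879 and 1.68 CPM. For both H4 genes the groups overlapped and RI replicate 1 was highest.

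The 4 H1 members summed to 35.2, 26.1 and 13.2 CPM in ICI and 66.5, 25.4 and 26.3 CPM in RI, and the ratio of 1.59 was 1.04 without RI replicate 1. Most of this was H1f2, at 34.2, 23.0 and 12.2 CPM in ICI and 57.9, 23.5 and 24.7 CPM in RI (edgeR adjusted p 0.420). ICI replicate 1 was the highest ICI library of H1f2, unlike in H1f3 and H1f4, where ICI replicate 2 was. The 13 H2A members summed to 6.56, 7.07 and 3.93 CPM in ICI and to 16.5, 7.89 and 6.72 CPM in RI. Their ratio was 1.77, and 1.25 without RI replicate 1. H2ac25, an H2A gene on chromosome 11, led that class with 4.49, 2.87 and 2.13 CPM in ICI and 4.11, 5.39 and 4.20 CPM in RI (edgeR adjusted p 0.293).

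The H2B sum followed H2bc4. It was 50.6, 35.8 and 48.3 CPM in ICI and 86.1, 92.4 and 65.3 CPM in RI, every RI library being above every ICI library, and the ratio was 1.81, or 1.76 without RI replicate 1. H2bc21, another H2B gene, was at 10.6, 7.60 and 10.7 CPM in ICI and at 9.75, 9.44 and 7.89 CPM in RI, with a log2 fold change of -0.09 and an edgeR adjusted p of 0.787. H2bc8 averaged 2.25 ± 0.271 CPM in ICI and 4.14 ± 1.93 CPM in RI (edgeR adjusted p 0.168). With H1f2 and H2bc4 left out, the other 52 replication-dependent members summed to 30.5, 43.6 and 29.8 CPM in ICI and 116, 35.8 and 28.3 CPM in RI, a ratio of 1.74 that became 0.926 without RI replicate 1.

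**Figure D3:**
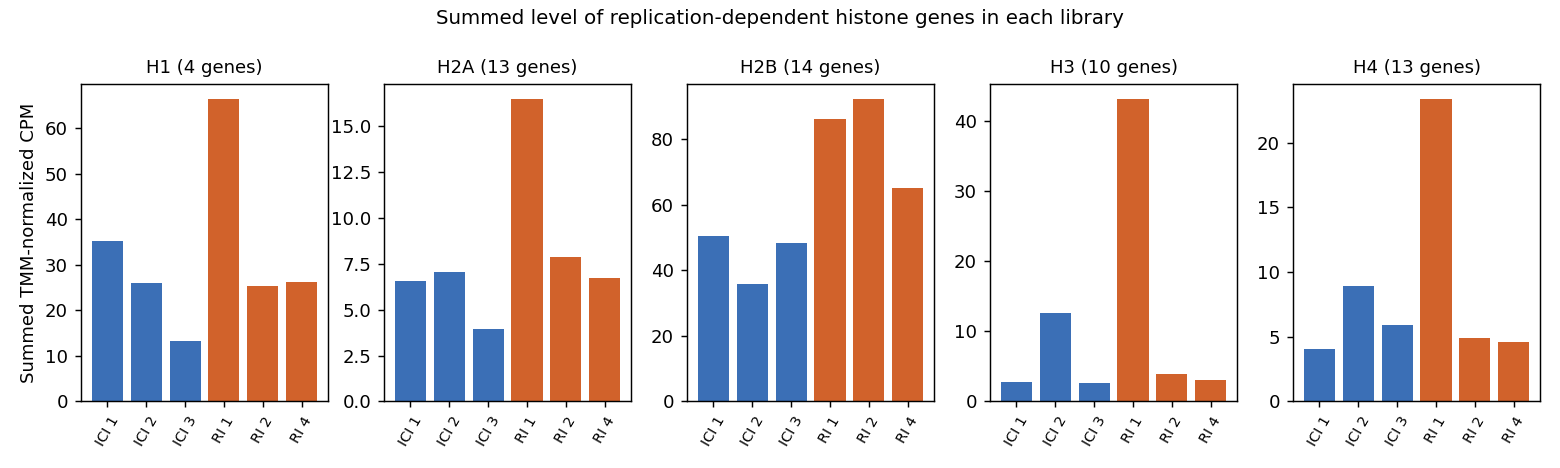
Summed TMM-normalized CPM of the members of each replication-dependent class, with 1 bar per library and each panel on its own axis from 0. RI replicate 1 is the tallest bar in H1, H2A, H3 and H4, and in H2B the 3 RI bars, 65.3 to 92.4 CPM, are all above the ICI bars.

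Rn7sk was high in the same 2 libraries. This RNA, the 7SK RNA without a poly(A) tail that restrains the elongation factor P-TEFb, was at 0.288, 4.91 and 0.314 CPM in ICI and at 21.4, 0.901 and 0.700 CPM in RI. Of 16 short RNAs of this kind found, 14 were highest in RI replicate 1, against 25.6% of rows detected in at least 3 libraries. The 16 were taken without that detection rule, and some, such as Rnu5g and Snord118, had counts in RI replicate 1 alone. The 25.6% is therefore not a matched background for them. Only 6 of the 16 were highest within ICI in replicate 2, and 9 were at 0 there. Most of them rest on few counts: only Rn7sk and Scarna13 passed the filter, and Rn7s1 and Rn7s2 had the same counts in every library. Without Rn7sk the others summed to 0.891, 1.28 and 1.0 CPM in ICI and to 4.4, 1.17 and 1.07 CPM in RI, so that RI replicate 1 stood apart and ICI replicate 2 lay close to the other 4. Scarna13 was lowest in RI replicate 1, at 0.355 CPM against 0.528 to 0.899. The long nuclear RNAs of the same list did not have this order: Malat1 was at 109 CPM and Neat1 at 166 CPM in RI replicate 1, below both other RI libraries (159 and 173, and 384 and 436). Rn18s-rs5, a ribosomal RNA row picked after its values were seen, held 1.32% of the counts of RI replicate 1 and 0.112% to 0.275% of those of the other libraries. RI replicate 1 also had the most rows with a count above 0, 29748 against 22763 to 24891. The part of RNA quality or library preparation in the histone values was not tested. With 2 libraries high and 4 low, no correlation across libraries was computed.

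Genes were also divided by the longest stretch after the stem-loop in any annotated transcript, at a limit of 200 bases chosen after values were seen. Of the 23 members with a stem-loop and a shorter stretch, 11 were tested, and their median log2 fold change was 1.26. Of the 17 with a longer stretch, 16 were tested, with a median of 0.86. Without RI replicate 1 the medians were -0.00 and -0.39. The median deviation of RI replicate 1 was 1.54 in the first set and 1.45 in the second, and 0.49 in the 3 tested genes with no stem-loop match.

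**Figure D4:**
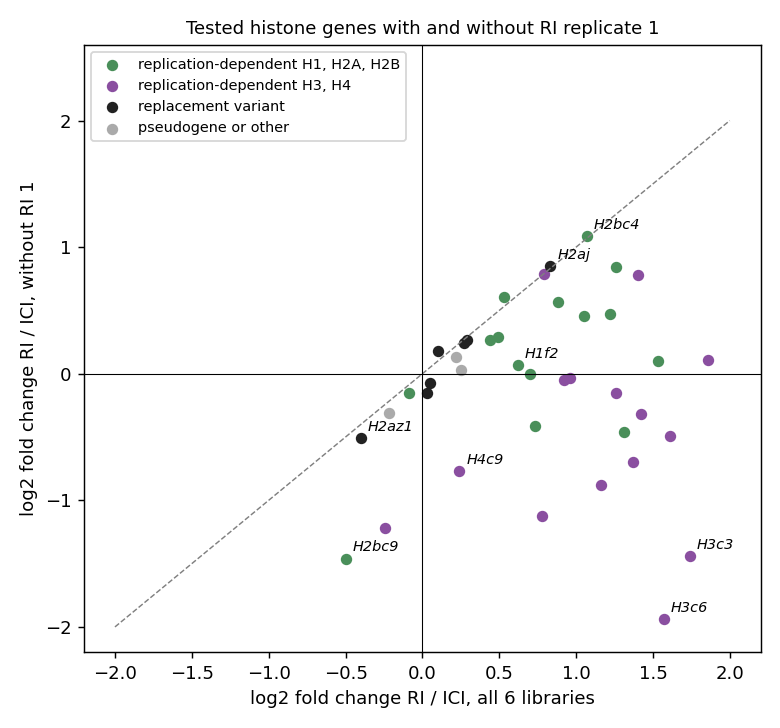
Log2 fold change of RI over ICI for each tested histone gene with all 6 libraries (x axis) and without RI replicate 1 (y axis), coloured by class, with the line of equal values dashed. H2bc4 and H2aj stay near that line, at 1.07 and 1.09 and at 0.83 and 0.85, while H3c6 goes from 1.57 to -1.94.

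Many H2A and H2B genes lie head to head and share the stretch between them. There were 11 such pairs with both genes among the members, with gaps of 172 to 301 bases, counting the pseudogene H2bc26-ps with H2ac25 at 172. The level per kilobase of the more abundant gene was 1.17 to 98.3 times that of its partner, with a median of 2.97. The pair H2ac6 and H2bc4 gave the highest ratio. The annotated H2ac6 transcript of 2482 bases has 2010 after its stem-loop, so this ratio may be too high. H2ac6 was at 0.604, 0.654 and 0.314 CPM in ICI and at 3.41, 0.473 and 0.653 CPM in RI, high in RI replicate 1 alone, and its log2 fold change of 1.53 was 0.10 without RI replicate 1. H2bc4 was high in all 3 RI libraries.

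The sequence between H2ac6 and H2bc4 is shown because the 2 genes of this gap differed in level and in pattern, and the stretch before the start of H2aj is shown beside it as that of the other called gene. Both are from RefSeq promoter entries on GRCm38, plus strand, at chr13:23683949-23684198 and chr6:136807998-136808247. Capitals mark 3 motifs on either strand that are known parts of histone promoters. CCAAT is the core of the site of NF-Y, TATAAA is a TATA box, and the octamer ATTTGCAT is bound by Oct-1.
Between H2ac6 and H2bc4: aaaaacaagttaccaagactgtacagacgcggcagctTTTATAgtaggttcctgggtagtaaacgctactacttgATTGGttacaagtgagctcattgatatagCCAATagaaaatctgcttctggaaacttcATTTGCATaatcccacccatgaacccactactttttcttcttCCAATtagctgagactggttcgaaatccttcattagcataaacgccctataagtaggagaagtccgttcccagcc
H2aj upstream: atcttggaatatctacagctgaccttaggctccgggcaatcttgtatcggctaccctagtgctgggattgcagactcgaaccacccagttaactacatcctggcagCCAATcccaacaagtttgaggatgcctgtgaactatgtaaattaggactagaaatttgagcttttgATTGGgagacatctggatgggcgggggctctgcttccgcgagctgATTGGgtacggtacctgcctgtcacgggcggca

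The stretch between H2ac6 and H2bc4 held 3 CCAAT, 1 TATAAA and 1 ATTTGCAT, none overlapping another, and that before H2aj held 3 CCAAT and neither of the others. RefSeq promoter entries, from 250 bases before to 50 after a start, were matched for 58 members. CCAAT on either strand was found in 38 of 46 replication-dependent entries (82.6%), in 3 of the 11 H4 entries and in all the entries of H1, H2A, H2B and H3, against 37.4% of 32851 promoters. TATAAA was found in 28 of the 46 (60.9%) against 13.6%. ATTTGCAT was found in 8 of the 46 (17.4%) against 1.74%, with 5 in the 12 H2A and 3 in the 11 H2B entries. Entries of paired genes share their sequence, so these counts are not independent. A match is a string of letters and no measure of binding.

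Genes that make histone mRNAs mature or disappear were counted from a list of 31 tested genes. The same fit called 2 lower in RI (6.45%, against 4.72% of all tested genes) and 0 higher, with 8 lower and 1 higher at an unadjusted p under 0.05, 5 and 1 by DESeq2 and 2 and 0 by limma-voom. The share called lower by edgeR at the adjusted p was near that of all genes. The shares lower at an unadjusted p under 0.05 and by DESeq2 were above those of all genes, 15.8% and 8.42%. Cpsf2, which binds the histone cleavage machinery's endonuclease, was at 74.4, 66.4 and 68.4 CPM in ICI and at 40.6, 43.2 and 45.1 CPM in RI, a log2 fold change of -0.70 (SE 0.11) with an edgeR adjusted p of 0.0263. Casp8ap2, a protein of the histone locus body also known as FLASH, was at 19.0 to 20.4 CPM in ICI and at 8.69 to 14.2 CPM in RI, with a log2 fold change of -0.83 and an edgeR adjusted p of 0.0454. In both genes every RI library was below every ICI library. Both calls were lost after correction for length and GC content, with adjusted p of 0.0557 and 0.110.

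Slbp had a log2 fold change of -0.13 (edgeR adjusted p 0.705), Npat, the activator of histone genes at the locus body, of -0.12 (0.566), and Lsm11, a protein of the U7 particle, of -0.63 (0.0604). The list's median was -0.01, against 0.01 for all tested genes. In RI replicate 1, the library with the highest replication-dependent levels, Slbp stood at 44.5 CPM, below the other 5 libraries (62.2 to 80.6 CPM).

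Of 31 tested histone chaperones and exchange factors, which hand histones to DNA or take them off, 2 were lower in RI (6.45%, again near the 4.72% of all tested genes) and 0 higher by edgeR. At an unadjusted p under 0.05 there were 10 lower and 4 higher, by DESeq2 6 and 1, and by limma-voom 2 and 0. Here too the shares lower at the unadjusted p and by DESeq2 were above those of all genes, 15.8% and 8.42%. Supt16, a subunit of the FACT complex, was at 59.0, 53.5 and 67.7 CPM in ICI and at 31.0, 27.9 and 31.5 CPM in RI (1.99-fold lower, SE 0.13 on the log2 scale, edgeR adjusted p 0.0219). Chaf1a, the large subunit of the CAF-1 complex that loads H3 and H4 at forks, was at 52.6, 37.4 and 71.4 CPM in ICI and at 29.9, 24.1 and 23.2 CPM in RI (log2 fold change -1.07, edgeR adjusted p 0.0387). Its partner subunit Chaf1b had a log2 fold change of 0.35 and an edgeR adjusted p of 0.184. Of the genes for H3.3 chaperones, Hira was at 0.44 (0.134), Daxx at -0.54 (0.160) and Atrx at -0.35 (0.110), as log2 fold change with edgeR adjusted p in parentheses. Asf1b, which carries H3 and H4 to CAF-1, was at -0.63 (0.0532), and Nasp, which holds free H3 and H4, at -0.32 (0.361).

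Of 26 genes of S phase and replication, 6 were lower in RI (23.1%, against 4.72% of all tested genes) and 0 higher by edgeR (16 and 0 at an unadjusted p under 0.05, 14 and 0 by DESeq2, 5 and 0 by limma-voom), and the list's median log2 fold change was -0.59. They were Mcm2, Mcm4, Ccne2, Cdc6, Pola1 and Top2a, which load or run the replication fork, start S phase or untangle DNA. Mcm2, a subunit of the replicative helicase that also binds histones, was at 246, 211 and 334 CPM in ICI and at 154, 120 and 129 CPM in RI, with a log2 fold change of -0.97 and an edgeR adjusted p of 0.0346. Pcna, the sliding clamp, was at 219, 247 and 335 CPM in ICI and at 214, 210 and 195 CPM in RI (edgeR adjusted p 0.185). RI replicate 1 had a summed level of these 26 genes of 1850 CPM, between those of the other RI libraries (1590 and 1810) and those of ICI (2150 to 3360). These 3 lists had 0 calls lower in RI without ICI replicate 1, ICI replicate 3, RI replicate 2 or RI replicate 4. In the same fits, in that order, 0, 0, 0 and 16 of all tested genes were called lower. A count of 0 there is therefore not particular to the lists. Without ICI replicate 2 the lists, in the order given, had 1, 2 and 6, where 291 of all tested genes were called lower. Without RI replicate 1 they had 6, 6 and 11, where 8.8% of all tested genes were called lower.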

How the data were processed

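Raw integer counts were deposited by the authors for 6 libraries, 1 row per gene, with Ensembl identifiers and symbols. Per the submitters' processing notes, HISAT2 and the builds GRCm38 and mm10 were used. No source used here gives the counting tool, annotation release, strand setting or RNA selection. Genes were kept with filterByExpr (minimum count 10), scaled by TMM and tested with edgeR 4.0.16 (robust quasi-likelihood test, R 4.3.3), with Benjamini-Hochberg adjustment over all tested genes and calls at 0.05. The scripts were tested on simulated counts. Reads that fit several histone copies may be lost or split, which affects single-gene levels.

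Alternatives were scaling by median of ratios or by upper quartile, no low-count filter, a filter of 1 CPM in 3 libraries, DESeq2 1.42.0, limma-voom (limma 3.58.1), the replicate number as a block, leaving out each library, leaving out mitochondrial genes, a correction for transcript length and GC content (splines of 5 degrees of freedom), and sums over members with no near-identical copy.

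The members and lists were chosen with earlier results of these data known. The classes, the motifs, the limit of 200 bases after the stem-loop, the ribosomal RNA row and the fit without both ICI 2 and RI 1 were chosen after values were seen. Named members were all tested replacement variants, all called members, the 3 most abundant of each replication-dependent class and the 5 largest rises and falls, of which not all are given here. Named list genes were the called ones and a set of central factors. All 73 members were found in GENCODE M21 by identifier. Near-identity was at least 95% over 100 bases (blastn).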

Additional observations from a re-analysis of the deposited data

How the results depend on the processing

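With 3 libraries a group, the calls depend on single libraries, and members under 1 CPM rest on few counts. H2bc4 and H2aj were both called with the other scalings and filters, DESeq2, limma-voom and without RI replicate 1. Called histone genes numbered 0 to 2 higher over the leave-one-out fits, 1 with the length and GC correction and 1 with the replicate block, and 0 lower throughout. The replicate block changed H2aj to an adjusted p of 0.0631. Labels share only numbers 1 and 2 between groups and do not say that they pair libraries (correlations of deviations 0.353 and 0.0909). The cause of each change below was not tested.

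Calls over all genes, higher and lower, were 1532 and 1559 by DESeq2, 400 and 245 with the block, 263 and 356 with the length and GC correction, 1690 and 1813 with both ICI 2 and RI 1 left out, and 0 to 1564 and 0 to 1545 over the leave-one-out fits. With upper-quartile scaling they were 1046 and 497, and with no filter 1121 and 1507.

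The processing list (higher, lower) gave 1 and 5 with no filter and by DESeq2, 1 and 6 with both libraries left out, 1 lower with upper-quartile scaling, 0 lower with the block or the length and GC correction, and 0 to 1 higher and 0 to 6 lower over the leave-one-out fits. The chaperone list gave 1 higher with median-of-ratios scaling, upper-quartile scaling, the filter of 1 CPM or DESeq2, 3 higher and 7 lower with both libraries left out, 7 lower with no filter, 6 lower by DESeq2, 1 lower with the block, and 0 to 2 higher and 0 to 6 lower over the leave-one-out fits. The S phase list gave 15 lower with no filter, 14 by DESeq2 and with both libraries left out, 3 with the length and GC correction, 1 with the block and 0 to 11 over the leave-one-out fits. RNAs without a tail gave 1 higher by DESeq2, with the block and with both libraries left out, and 0 to 1 over the leave-one-out fits.

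Median log2 fold changes over the leave-one-out fits ran from -0.02 to 1.10 for all tested members, 0.07 to 1.55 for H1, 0.37 to 1.35 for H2A, 0.15 to 0.76 for H2B, -0.32 to 2.69 for H3, -0.73 to 1.72 for H4 and 0.09 to 0.20 for replacement variants. With both libraries left out they were 0.18 for all members, 0.29 for H2A, 0.64 for H1, 0.02 for H2B, 0.48 for H3, 0.18 for H4 and 0.23 for replacement variants. The log2 ratio of class sums ran from -0.79 to 2.62 for H3 and from -0.41 to 1.17 for H4. Over members with no near-identical copy it was -0.09 for H2B, which leaves H2bc4 out, and 0.32 for replacement variants.

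Of the 40 tested members 15 changed the sign of their log2 fold change without RI replicate 1, and of the 35 tested in both fits 8 did with both libraries left out. Values follow for the named genes only. Over the leave-one-out fits, the log2 fold change ran from -0.12 to 0.16 for H1f0, -0.46 to 2.40 for H1f4, -0.41 to 1.10 for H2ac8, -0.04 to 0.20 for H2ax, -0.32 to 2.18 for H3c15, -1.44 to 2.88 for H3c3, -1.94 to 4.45 for H3c6, -0.49 to 2.69 for H3c7, -0.15 to 0.13 for H3f3b, -1.22 to 0.13 for H4c14, -1.12 to 1.72 for H4c4, -0.77 to 0.62 for H4c9 and from -0.27 to 0.07 for Slbp. Named genes that changed direction with both libraries left out were H1f0 (-0.04), H2ac8 (-0.14), H3c3 (-0.29), H3f3b (-0.17), H4c4 (-0.17) and H4c9 (-0.88). With the replicate block they were H1f0 (-0.09), H2bc21 (0.10), H2bc9 (0.15), H4c14 (0.06), Lsm10 (-0.04) and Nasp (0.03). With the length and GC correction they were H1f0 (-0.09), H2ax (-0.32), H4c9 (-0.11), Lsm10 (-0.24) and Npat (0.11). With no filter they were H1f0 (-0.02) and H3f3b (-0.04), and by limma-voom H4c9 (-0.10).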
